A study of Homo sapiens with 4 samples.

Results

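Telomere maintenance and recombination genes were followed in 2 human neuroendocrine tumour cell lines after knockdown of DAXX. The set held 34 genes, chosen by name from the telomerase complex, the proteins that cap telomeres and the helicases, nucleases and complexes of homologous recombination. A gene counted as measured where a probe set of the array was annotated to it alone, and the brightest such probe set on average stood for it. By this rule 30 of the 34 genes were measured, out of 19775 genes in all. All 30 lay above the filter on dim genes, which kept 14648 genes with a mean signal of at least 4.85 on the log2 scale. DKC1 and TEN1 had only probe sets that were annotated to several genes, and FANCD2 and BRCA2 were not analysed here.

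The 4 groups were NCI-H727 DAXX-KD, NCI-H727 control, QGP1 DAXX-KD and QGP1 control, with 1 array each and hence no replicate within a line. NCI-H727 is an established line from a bronchial neuroendocrine tumour and QGP1 one from a pancreatic neuroendocrine tumour. DAXX-KD cells were electroporated with siRNA against DAXX and control cells with a universal negative control siRNA, both at 50 nM. The labels name a pair of DAXX siRNAs without saying whether they were mixed, and they give no time after transfection. The line of each array was taken from its title, since the source field of the NCI-H727 arrays names QGP1 and the description field of every array reads as QGP1 cells high in ALDH.

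Telomeres end in repeated DNA that shelterin covers and that telomerase, a reverse transcriptase carrying its own RNA template, extends. Cells without telomerase can instead lengthen telomeres by recombination, known as alternative lengthening (ALT), which draws on the BLM helicase, the MRE11-RAD50-NBN (MRN) complex and the SMC5/6 SUMO ligase. DAXX and its partner ATRX deposit histone H3.3 at telomeres, and tumours that have lost either protein often show ALT. The comparison of DAXX-KD with control cells asks here whether the RNA of the genes on either side of this choice differed after the knockdown.

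The arrays had medians between 5.31 and 5.36. DAXX had a signal of 6.14 in NCI-H727 DAXX-KD and 7.35 in NCI-H727 control, and of 6.56 in QGP1 DAXX-KD and 8.52 in QGP1 control. The targeted gene was thus at 43.3% and 25.7% of its control signal at this probe set. Its other probe set past the filter was at 56.2% in NCI-H727 and 22.7% in QGP1. ATRX was at 7.74 and 8.34 in the NCI-H727 DAXX-KD and control arrays, and at 9.59 and 9.74 in those of QGP1. Among neuroendocrine markers, CHGA lay between 11.14 and 12.27 and SYP between 5.89 and 6.32. NCAM1 had 5.62 and 5.77 in the NCI-H727 DAXX-KD and control arrays and 8.38 and 8.28 in those of QGP1. Of these markers 11 of 11 passed the filter, which takes the mean over the 4 arrays and does not show presence in each. Of the markers of other cells, 3 of 5 leukocyte genes and 4 of 6 fibroblast and endothelial genes passed it too. LYZ, a lysozyme of myeloid and some epithelial cells, had 8.90 and 8.80 in the NCI-H727 arrays and 7.04 and 6.85 in those of QGP1, and the collagen gene COL1A1 lay between 7.25 and 7.66. PTPRC, the pan-leukocyte gene, and COL3A1 lay below the filter level throughout. PECAM1, an endothelial gene, was 2.08-fold higher in QGP1 DAXX-KD than in QGP1 control at the probe set that stood for it. Its other probe sets past the filter were 1.46-fold higher and 1.14-fold lower in that line. The part of these genes in the members' values was not tested. Lung and islet markers gave a mixed picture against the titles, and of those given here the ones that went against them differed most. NKX2-1, a lung transcription factor, had 3.23 and 3.35 in the arrays titled NCI-H727 against 8.38 and 8.77 in those titled QGP1, and RFX6, an islet transcription factor, had 9.69 and 9.33 against 3.31 and 3.18. The lung neuroendocrine peptide gene GRP (4.12 and 5.37 against 11.76 and 12.80) and the islet factor NKX2-2 (9.25 and 9.17 against 5.93 and 4.80) also went against the titles. Other islet genes followed them and were higher in QGP1, with means in NCI-H727 and QGP1 of 11.84 and 13.45 for SST, 8.88 and 9.53 for ISL1, and 5.40 and 6.71 for PAX6. CALCA, FOXA2, SFTPB and PDX1 differed between the lines by at most 0.23. Every statement on a named line below therefore rests on the titles alone.

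Promoter sequences are shown for 4 members, because the largest differences in this set lay between the lines and these members had the 2 largest called differences on each side among those with an entry in the RefSeq promoter table (GRCh38.p14) that could be printed. Each runs 5′ to 3′ on the strand of its gene, from 250 bases before the start of the gene to 50 after it. Capitals mark matches on either strand to any of 5 motifs, none of which contains another. The GC box was searched as GGGCGG. The CCAAT box was searched by the letters of its name, and the E-box as CACGTG. The repeat of human telomeres was searched as TTAGGG. The core of an ETS site was searched as CCGGAAG. MRE11, a nuclease of the MRN complex, and STN1, a subunit of the CST complex, were higher in NCI-H727, at chr11:94493795-94494094 (minus strand) and chr10:103918135-103918434 (minus strand). RMI1, a partner of BLM, and TNKS2, a tankyrase, were lower in NCI-H727, at chr9:83980109-83980408 (plus strand) and chr10:91798176-91798475 (plus strand).
MRE11: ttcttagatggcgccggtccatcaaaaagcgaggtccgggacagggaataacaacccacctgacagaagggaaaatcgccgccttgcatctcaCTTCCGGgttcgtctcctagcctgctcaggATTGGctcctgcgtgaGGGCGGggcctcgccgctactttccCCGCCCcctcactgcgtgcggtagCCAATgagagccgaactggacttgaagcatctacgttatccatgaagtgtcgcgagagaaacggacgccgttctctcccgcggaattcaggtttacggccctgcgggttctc
STN1: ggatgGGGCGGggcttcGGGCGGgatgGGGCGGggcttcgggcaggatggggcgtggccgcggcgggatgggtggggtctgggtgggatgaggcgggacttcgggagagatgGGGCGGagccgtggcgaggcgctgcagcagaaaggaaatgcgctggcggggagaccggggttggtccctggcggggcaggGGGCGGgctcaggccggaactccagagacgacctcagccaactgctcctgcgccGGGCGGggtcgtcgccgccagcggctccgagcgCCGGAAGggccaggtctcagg
RMI1: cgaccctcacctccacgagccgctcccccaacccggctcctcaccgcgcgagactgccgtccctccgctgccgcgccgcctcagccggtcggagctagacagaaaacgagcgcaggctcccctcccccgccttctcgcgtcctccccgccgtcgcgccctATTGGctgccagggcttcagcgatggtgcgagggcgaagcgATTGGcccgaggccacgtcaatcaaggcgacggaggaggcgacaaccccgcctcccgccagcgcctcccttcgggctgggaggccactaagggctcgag
TNKS2: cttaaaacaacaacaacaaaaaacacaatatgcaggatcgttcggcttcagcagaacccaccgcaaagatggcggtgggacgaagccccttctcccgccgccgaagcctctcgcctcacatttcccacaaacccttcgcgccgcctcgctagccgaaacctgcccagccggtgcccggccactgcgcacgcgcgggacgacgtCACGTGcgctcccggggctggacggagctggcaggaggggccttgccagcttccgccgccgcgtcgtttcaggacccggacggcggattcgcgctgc
The MRE11 window held 2 GC boxes, 2 CCAAT boxes and 1 ETS core, the STN1 window 6 GC boxes and 1 ETS core, the RMI1 window 2 CCAAT boxes, and the TNKS2 window 1 E-box.

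Of the 30 measured members, 22 had a promoter in the table. An ETS core lay in 10 of the 22 (45.5%), against 17.6% of the 10937 promoters of genes past the filter and 14.2% of all 15842 promoters. GC boxes lay in 15 of the 22 (68.2%), against 67.8% of the genes past the filter and 58.5% of all promoters, and CCAAT boxes in 8 (36.4%), against 36.1% and 36.4%. E-boxes lay in 4 (18.2%, against 9.91% and 8.88%), among them TERT, the catalytic subunit of telomerase. The telomere repeat lay in 4 (18.2%, against 8.29% and 8.66%), namely ATR, NHP2, SLX4 and WRAP53. These matches describe the letters of the windows and not sites that a factor uses. The start of another protein-coding gene lay on the opposite strand within 1000 bases upstream of 6 of the 22 members (27.3%), against 12.6% of the genes past the filter. MRE11 lay 140 bases from ANKRD49 and SMC6 59 bases from GEN1, a resolvase of recombination intermediates.

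After DAXX knockdown the members stayed close to their controls in both lines. The values are of bulk RNA, in which fewer cells with a transcript and less of it per cell cannot be told apart. No member was 2-fold or more higher or lower in either line, against 0.177% of all genes higher and 1.32% lower in NCI-H727, and 0.259% and 0.232% in QGP1. At 1.5-fold, 1 member was lower in NCI-H727 and none was higher, against 4.96% of all genes lower and 1.60% higher. In QGP1 no member was past 1.5-fold, against 1.32% of all genes lower and 1.74% higher. With 30 members, these counts were near the shares over all genes. The median difference, DAXX-KD minus control, was -0.03 in NCI-H727 and 0.10 in QGP1, against 0.02 in each line over all genes. The plot of the knockdown differences among all genes shows the members within both distributions, with TNKS in the lower tail of NCI-H727.

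**Figure D1:**
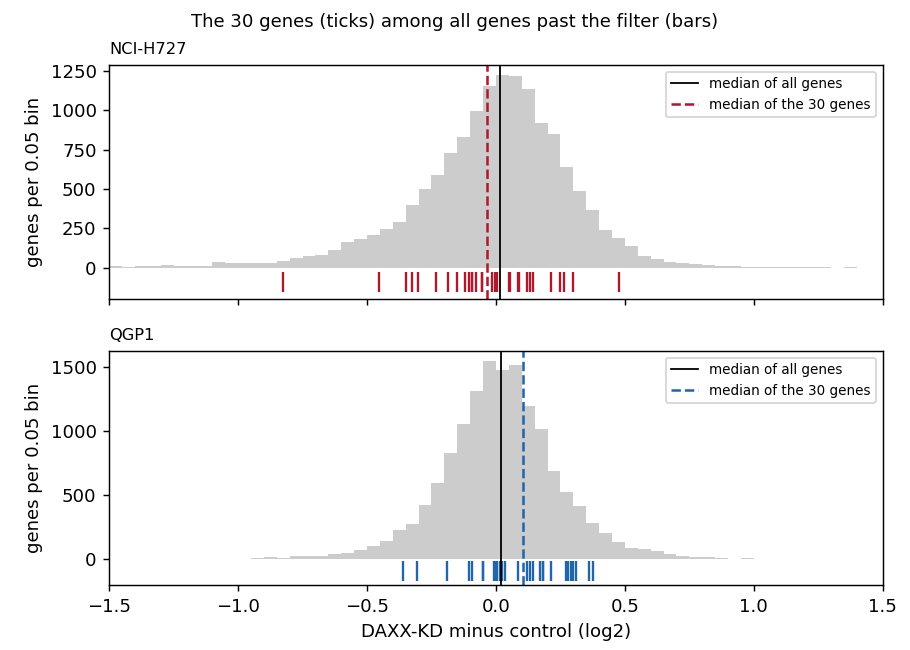
Histograms of the difference DAXX-KD minus control (log2) over the 14648 genes past the filter in bins of 0.05, with NCI-H727 above QGP1; 44 and 16 genes lie outside the axis. Ticks under the bars are the 30 members, whose dashed medians (-0.03 and 0.10) lie close to the solid medians of all genes.

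The sign of the difference varied between the lines. In NCI-H727, 13 members were higher and 17 lower in the DAXX-KD array, where 52.5% of all genes were higher and 47.3% lower. In QGP1, 20 members were higher, 9 lower and SLX4 was equal, where 53.5% of all genes were higher and 46.2% lower. Both lines had 10 members higher, 33.3% of those measured, against 28.8% of all genes, and both had 6 lower, 20.0%, against 22.6%. At 1.5-fold, 0 members were higher and 0 lower in both lines (0.137% and 0.703% of all genes). A further 10 members were higher in QGP1 and lower in NCI-H727 (24.7% of all genes), and 3 showed the opposite (23.5%). Across the 30 members the differences of the lines had a Pearson correlation of -0.03 and a Spearman correlation of 0.07, and across all genes 0.19 and 0.07; genes of an array share its processing and are not independent.

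The joint limma fit, with terms for knockdown and line (a block), which takes the lines as the only repeats of the knockdown, called none of the 30 members at an adjusted p of 0.05 over all genes. Their adjusted p-values in limma ran from 0.728 to 0.999, and 0 of them had an unadjusted p under 0.05, against 6.92% of all genes. The fit called 0 of the 14648 genes, DAXX included. For each of the 30 members the 95% interval of the difference included 0 and lay within 2-fold in either direction, and for 24 it lay within 1.5-fold. The widest reached down to -0.97 and belonged to TNKS. Nothing in the labels says that an array came from a separate culture, so these intervals do not speak for the spread between cultures. Their width mixes the spread between the lines' differences of a gene with a prior spread that limma draws from all genes. The prior had 4.18 degrees of freedom against 1 residual, so the widths rest largely on it.

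**Figure D2:**
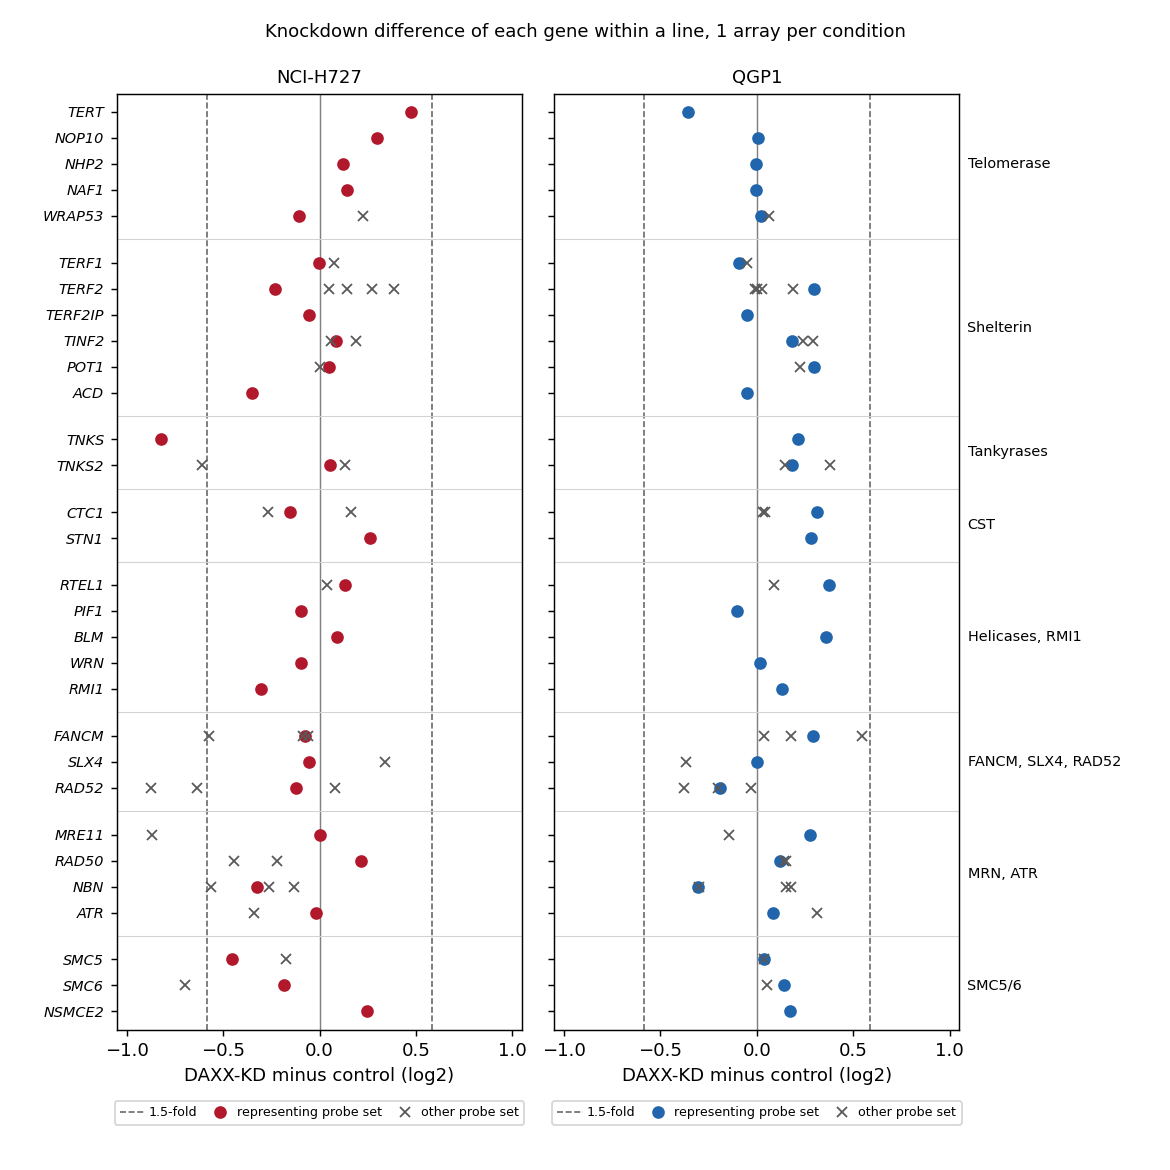
Difference DAXX-KD minus control (log2) of each member in NCI-H727 (left) and QGP1 (right), 1 array per condition, grouped by role. Filled points are the probe sets that represent the genes, crosses other probe sets past the filter, and dashed lines 1.5-fold; TNKS in NCI-H727 is the 1 filled point beyond them.

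Telomerase genes showed small differences with opposite signs in the lines for the catalytic subunit. TERT had 5.76 in NCI-H727 DAXX-KD against 5.28 in NCI-H727 control, and 5.13 in QGP1 DAXX-KD against 5.49 in QGP1 control. It was thus higher by 0.48 in one line and lower by 0.36 in the other, and all 4 values lay within 1 log2 unit of the filter level, where RMA compresses differences. The second TERT probe set, below the filter level in every array, differed by 0.22 and by -0.41. In limma the joint difference of TERT was 0.06 (SE 0.22, adjusted p = 0.999).

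NOP10 and NHP2, which with dyskerin form the protein core on the telomerase RNA, differed little after knockdown. NOP10 had 11.90 in NCI-H727 DAXX-KD against 11.61 in its control, and 12.53 in both QGP1 arrays. NHP2 differed by 0.12 in NCI-H727 and by less than 0.01 in QGP1. NAF1, an assembly factor of this core, differed by 0.14 and -0.01, and WRAP53, which brings telomerase to Cajal bodies, by -0.11 and 0.02. The second WRAP53 probe set differed by 0.22 in NCI-H727, opposite to the first, and by 0.06 in QGP1. None of the 5 telomerase genes measured passed the test in the joint limma fit.

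Of the shelterin genes, none passed the test. TERF2, which guards the telomere loop, had 7.35 in NCI-H727 DAXX-KD against 7.58 in NCI-H727 control, and 7.97 in QGP1 DAXX-KD against 7.67 in QGP1 control. The 4 further TERF2 probe sets gave 0.05 to 0.38 in NCI-H727, opposite to the first, and by -0.01 to 0.19 in QGP1, so its direction depends on the probe set. TERF1, which counts telomere length, differed by less than 0.01 in NCI-H727 and by -0.09 in QGP1. TERF2IP, the RAP1 protein bound to TERF2, differed by -0.05 in each line.

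POT1, which binds the single-stranded overhang, had 9.44 and 9.39 in the NCI-H727 DAXX-KD and control arrays, and 8.90 and 8.60 in those of QGP1. Its second probe set gave differences of 0.00 and 0.22, beside 0.05 and 0.30. TINF2, the bridge between the DNA-binding subunits, was higher in the DAXX-KD array at all 3 of its probe sets in both lines, by 0.06 to 0.19 in NCI-H727 and by 0.18 to 0.29 in QGP1. ACD, the TPP1 protein that recruits telomerase, differed by -0.35 in NCI-H727 and -0.05 in QGP1. None of these sizes reached 1.5-fold, and in limma the lowest adjusted p among the 6 genes was 0.898, for ACD.

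TNKS, a poly-ADP-ribose polymerase that strips TERF1 from telomeres, showed the largest knockdown difference among the representing probe sets. It had 5.92 in NCI-H727 DAXX-KD against 6.74 in NCI-H727 control, 1.77-fold lower, which placed it at the 2.11th percentile of all genes in that line. In QGP1 it had 8.68 in DAXX-KD against 8.47 in control, 1.16-fold higher. The 3 further TNKS probe sets, dim on average, gave -0.12 to 0.38 in NCI-H727. In limma the joint difference was -0.30 (SE 0.26, adjusted p = 0.927, lower in 1 of 2 lines).

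The related TNKS2 differed by 0.05 in NCI-H727 and 0.18 in QGP1. A second TNKS2 probe set had 6.01 in NCI-H727 DAXX-KD against 6.62 in NCI-H727 control and 7.57 in QGP1 DAXX-KD against 7.19 in QGP1 control, the same pair of directions as TNKS. The last differed by 0.13 and 0.15.

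In the CST complex, which fills in the lagging strand at telomeres, STN1 was higher after knockdown in each line at its representing probe set. It had 9.40 in NCI-H727 DAXX-KD against 9.14 in NCI-H727 control, and 8.26 in QGP1 DAXX-KD against 7.98 in QGP1 control. The limma difference was 0.27 (SE 0.13, adjusted p = 0.782, higher in 2 of 2 lines), so it did not pass. A second, dim STN1 probe set differed by -0.14 in NCI-H727 and 0.21 in QGP1, and with the mean of both the NCI-H727 difference was 0.063. CTC1, the large subunit, had 6.11 and 6.26 in the NCI-H727 DAXX-KD and control arrays, and 8.15 and 7.84 in those of QGP1.

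Of the 5 genes of the helicase group, BLM and RTEL1 were higher and PIF1 lower in both lines, and WRN and RMI1 had opposite signs. BLM, which dissolves recombination intermediates and drives ALT, had 8.93 in NCI-H727 DAXX-KD against 8.84 in NCI-H727 control, and 9.58 in QGP1 DAXX-KD against 9.22 in QGP1 control. RTEL1, which unwinds telomere loops, differed by 0.13 in NCI-H727 and by 0.38 in QGP1, the highest difference of a member in that line. Its second probe set differed by 0.04 and 0.09. The limma difference was 0.22 for BLM (SE 0.14, adjusted p = 0.852) and 0.25 for RTEL1 (SE 0.14, adjusted p = 0.830), each higher in 2 of 2 lines.

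RMI1, the partner of BLM, had 9.24 in NCI-H727 DAXX-KD against 9.55 in NCI-H727 control, and 10.53 in QGP1 DAXX-KD against 10.39 in QGP1 control. PIF1, a helicase that removes telomerase from its substrate, differed by -0.09 and -0.10, and WRN, the helicase lost in Werner syndrome, by -0.09 and 0.01. No helicase gene passed the test in limma.

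FANCM, a translocase that restrains ALT, was lower in the DAXX-KD array at all 4 of its probe sets in NCI-H727, by -0.06 to -0.57, and higher at all 4 in QGP1, by 0.04 to 0.54. The representing probe set had 7.11 in NCI-H727 DAXX-KD against 7.18 in NCI-H727 control, and 7.06 in QGP1 DAXX-KD against 6.77 in QGP1 control. Probe sets of 1 gene are read from the same arrays and are not repeats of the experiment. RAD52, which anneals single strands and feeds break-induced replication, had 6.14 and 6.26 in the NCI-H727 DAXX-KD and control arrays, and 5.73 and 5.92 in those of QGP1. Another RAD52 probe set had 5.05 in NCI-H727 DAXX-KD against 5.93 in NCI-H727 control, and one more had 5.55 in NCI-H727 DAXX-KD against 6.19 in NCI-H727 control. These probe sets differed by -0.20 and -0.38 in QGP1, and the last RAD52 probe set by 0.08 in NCI-H727 and -0.03 in QGP1. SLX4, a scaffold for nucleases, differed by -0.05 in NCI-H727, and its second probe set by 0.34 in NCI-H727 and -0.37 in QGP1.

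NBN, the signalling subunit of MRN, had the smallest p of the set. It had 10.13 in NCI-H727 DAXX-KD against 10.46 in NCI-H727 control, and 9.03 in QGP1 DAXX-KD against 9.34 in QGP1 control, lower by nearly the same size in each line. The limma difference was -0.32 (SE 0.13, unadjusted p = 0.0529, adjusted p = 0.728, lower in 2 of 2 lines). Its 3 other probe sets past the filter were lower in NCI-H727, by -0.13 to -0.56, but ran from -0.30 to 0.18 in QGP1, where 1 of the 3 was lower.

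MRE11 had 9.54 in both NCI-H727 arrays, and 7.92 in QGP1 DAXX-KD against 7.65 in QGP1 control. Its other probe set past the filter gave a different picture, at 3.90 in NCI-H727 DAXX-KD against 4.77 in NCI-H727 control, both under the filter level, and 5.75 in QGP1 DAXX-KD against 5.90 in QGP1 control. RAD50, the coiled-coil ATPase of the complex, differed by 0.21 in NCI-H727 and 0.12 in QGP1, and its other probe sets by -0.45 and -0.22 in NCI-H727. ATR, the kinase that senses single-stranded DNA, differed by -0.02 and 0.09, and its second probe set by -0.34 in NCI-H727 and 0.31 in QGP1.

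In the SMC5/6 complex, SMC5 had 8.17 in NCI-H727 DAXX-KD against 8.62 in NCI-H727 control, 1.37-fold lower, and 8.98 in QGP1 DAXX-KD against 8.94 in QGP1 control. The second SMC5 probe set past the filter differed by -0.18 in NCI-H727 and 0.04 in QGP1. SMC6 differed by -0.18 in NCI-H727 and 0.14 in QGP1, and its second probe set by -0.70 and 0.05. The SUMO ligase subunit NSMCE2 had 9.33 and 9.08 in the NCI-H727 DAXX-KD and control arrays, and 9.35 and 9.18 in those of QGP1. It was higher in both lines, with a limma difference of 0.21 (SE 0.13, adjusted p = 0.850).

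Over the 60 probe sets of the members past the filter, 6 were at least 1.5-fold lower in NCI-H727 DAXX-KD (10%, against 6.42% of all 27215 probe sets) and 0 at least 1.5-fold higher (against 1.59%). They belonged to TNKS, TNKS2, MRE11, SMC6 and, with 2, RAD52. In QGP1 0 of the 60 were past 1.5-fold, against 1.71% of probe sets higher and 1.41% lower. Over all genes, differences read by several probe sets of the same gene had an SD among them of 0.28 in NCI-H727 and 0.20 in QGP1, which is as large as most differences given here.

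Further genes of these pathways were read beside the members. Of 66 named in lists of other telomere, recombination, SMC5/6, Fanconi and checkpoint genes, 59 were measured past the filter. In QGP1 0 of them were past 1.5-fold, against 1.32% of all genes lower and 1.74% higher. In NCI-H727 2 were lower and 0 higher, against 4.96% and 1.60% of all genes. The median differences of the 59 genes were -0.06 in NCI-H727 and 0.09 in QGP1. The 2 lower genes were RAD51AP1, a DNA-binding recombination factor, with 9.75 in NCI-H727 DAXX-KD against 10.43 in NCI-H727 control, and FANCB, of the Fanconi core, with 5.56 in NCI-H727 DAXX-KD against 6.17 in NCI-H727 control. SLF2, which loads SMC5/6, followed at -0.58. PINX1 (0.29), RPA3 (0.28) and RUVBL2 (0.25) were the highest in that line.

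In QGP1 the highest of these genes were BRCA1 (0.46), its partner BARD1 (0.42) and the nuclear receptor NR2C1 (0.39), and the lowest RAD51AP1 (-0.27), RAD51D (-0.22) and HUS1 (-0.22). RAD51AP1 was lower in both lines, and its limma difference of -0.47 (SE 0.15, adjusted p = 0.639) did not pass. None of these genes was past 1.5-fold in both lines, against 0.137% of all genes higher and 0.703% lower. All 5 further SMC5/6 genes were lower in NCI-H727, where 47.3% of all genes were lower, with a median of -0.24. In QGP1 4 of the 5 were lower, against 46.2% of all genes, with a median of -0.10. The 3 SMC5/6 members were all higher in QGP1, against 53.5% of all genes, with a median of 0.14 and SMC5 at 0.03.

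Many recombination genes are transcribed with the cell cycle, so a list of 32 proliferation genes was read beside them. Its median was -0.07 in NCI-H727, with 21 of 32 lower (47.3% of all genes). In QGP1 the median of the list was 0.07, with 25 of 32 higher (53.5% of all genes). The 15 helicase, nuclease, MRN, ATR and SMC5/6 members had medians of -0.08 and 0.12, and the 15 telomerase, shelterin, tankyrase and CST members 0.05 and 0.02. No proliferation gene was past 1.5-fold in NCI-H727, against 4.96% of all genes lower and 1.60% higher. None was in QGP1 either, against 1.32% and 1.74%. The lowest in NCI-H727 were BUB1 (-0.40), CCNB2 (-0.39) and AURKA (-0.37), and the highest CDT1 (0.23), GINS2 (0.18) and CCNB1 (0.14). In QGP1 CCNE1 (0.32), MKI67 (0.30) and TK1 (0.29) were the highest, and TYMS (-0.30), CDC20 (-0.16) and PLK1 (-0.13) the lowest. The part of proliferation in the members' values was not tested.

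The largest differences of the representing probe sets lay between the cell lines. In the same limma fit, which sets the 2 arrays of NCI-H727 against the 2 of QGP1, 16 of the 30 members differed at an adjusted p of 0.05, 6 higher and 10 lower in NCI-H727. This is 53.3% of the members, against 48.3% of all genes (23.2% higher and 25.1% lower), so the share is near that of the arrays as a whole. At an unadjusted p under 0.05 there were 18 members, against 55.2% of all genes. The arrays of the lines did not overlap for 25 members, against 77.2% of all genes. The median size of the difference was 0.45 for the members and 0.43 for all genes. The arrays of a line share its culture history and differ in treatment, so these p-values do not speak for other cultures.

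**Figure D3:**
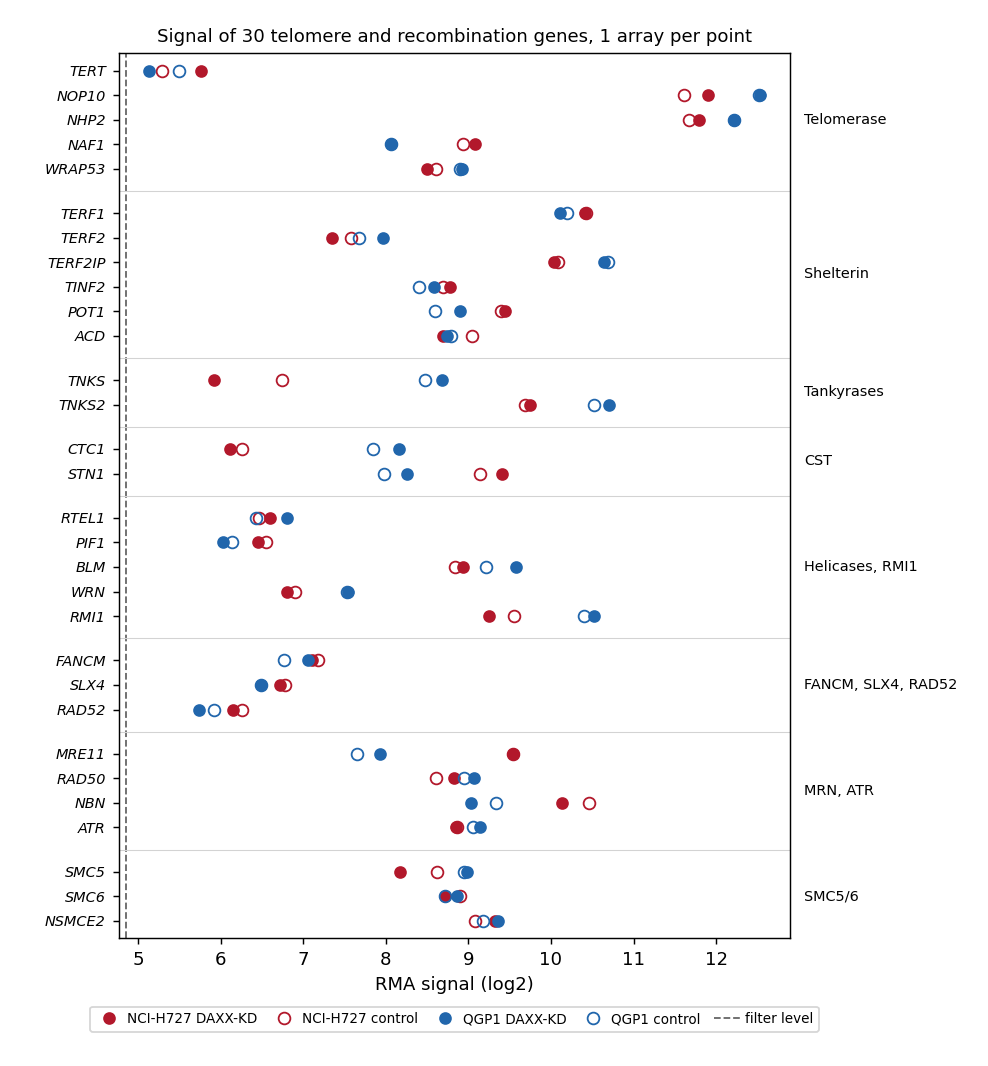
RMA signal (log2) of each member in the 4 arrays, with NCI-H727 in red and QGP1 in blue, DAXX-KD filled and control open; the dashed line is the filter level of 4.85. Filled and open points of a line lie close together, while the lines separate most for TNKS, CTC1 and MRE11; signals of different genes come from different probes and are not comparable.

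In both tankyrases the signal of the representing probe set was lower in NCI-H727. TNKS averaged 6.33 in NCI-H727 and 8.58 in QGP1, a difference of -2.24 (SE 0.26, limma adjusted p = 0.00182) or 4.74-fold. The other TNKS probe sets, all dim on average, differed by -0.07, 0.06 and 0.21, so this difference rests on 1 probe set. TNKS2 averaged 9.72 in NCI-H727 and 10.62 in QGP1 (limma adjusted p = 0.00375). One further TNKS2 probe set was lower in NCI-H727 too, by 1.07, and another did not differ, at 0.00.

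The CST subunits lay on opposite sides. CTC1 averaged 6.18 in NCI-H727 and 8.0 in QGP1, a difference of -1.82 (SE 0.16, limma adjusted p = 0.000775), while STN1 averaged 9.27 in NCI-H727 and 8.12 in QGP1, a difference of 1.15 (SE 0.13, limma adjusted p = 0.00152). For CTC1 the other probe sets differed by -0.83 and 0.01, so the size rests on the probe set chosen, and with the mean of its probe sets the STN1 difference was 0.40.

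MRE11 and NBN were higher in NCI-H727. MRE11 averaged 9.54 in NCI-H727 and 7.79 in QGP1, a difference of 1.76 (SE 0.14, limma adjusted p = 0.000518), and NBN 10.30 in NCI-H727 and 9.18 in QGP1, a difference of 1.12 (SE 0.13, limma adjusted p = 0.00168). The 3 other NBN probe sets were higher in NCI-H727 as well, by 1.46 to 2.23. The second MRE11 probe set pointed the other way, at -1.49, and with the mean of the probe sets the MRE11 difference was 0.33 and no longer passed. RAD50 differed by -0.29 at its representing probe set and did not pass (limma adjusted p = 0.118), but by -0.78 and -1.53 at the others, and with the mean of its probe sets the difference was -0.87 (limma adjusted p = 0.00211).

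Of the helicase group, RMI1 was lower in NCI-H727 by 1.06, WRN by 0.69 and BLM by 0.51, and PIF1 was higher by 0.42. In the telomerase group NAF1 was higher by 0.94, while NOP10 and NHP2 were lower by 0.77 and 0.49. TERT averaged 5.52 in NCI-H727 and 5.31 in QGP1 and did not pass (0.21, SE 0.22, limma adjusted p = 0.477), with overlapping arrays.

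Among shelterin genes POT1 was higher in NCI-H727 by 0.67 (0.39 at its second probe set) and TERF2IP lower by 0.61, and the other 4 did not pass. SMC5 was lower by 0.57, but by 0.06 at its second probe set, and its call was lost with the mean of the probe sets (limma adjusted p = 0.228) and with no filter (limma adjusted p = 0.0548). SMC6 differed by 0.01 at its representing probe set but by -1.93 at a second, where it had 4.95 and 5.65 in the NCI-H727 DAXX-KD and control arrays and 7.26 and 7.20 in those of QGP1. FANCM, SLX4, RAD52, ATR and NSMCE2 did not pass in limma.

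**Figure D4:**
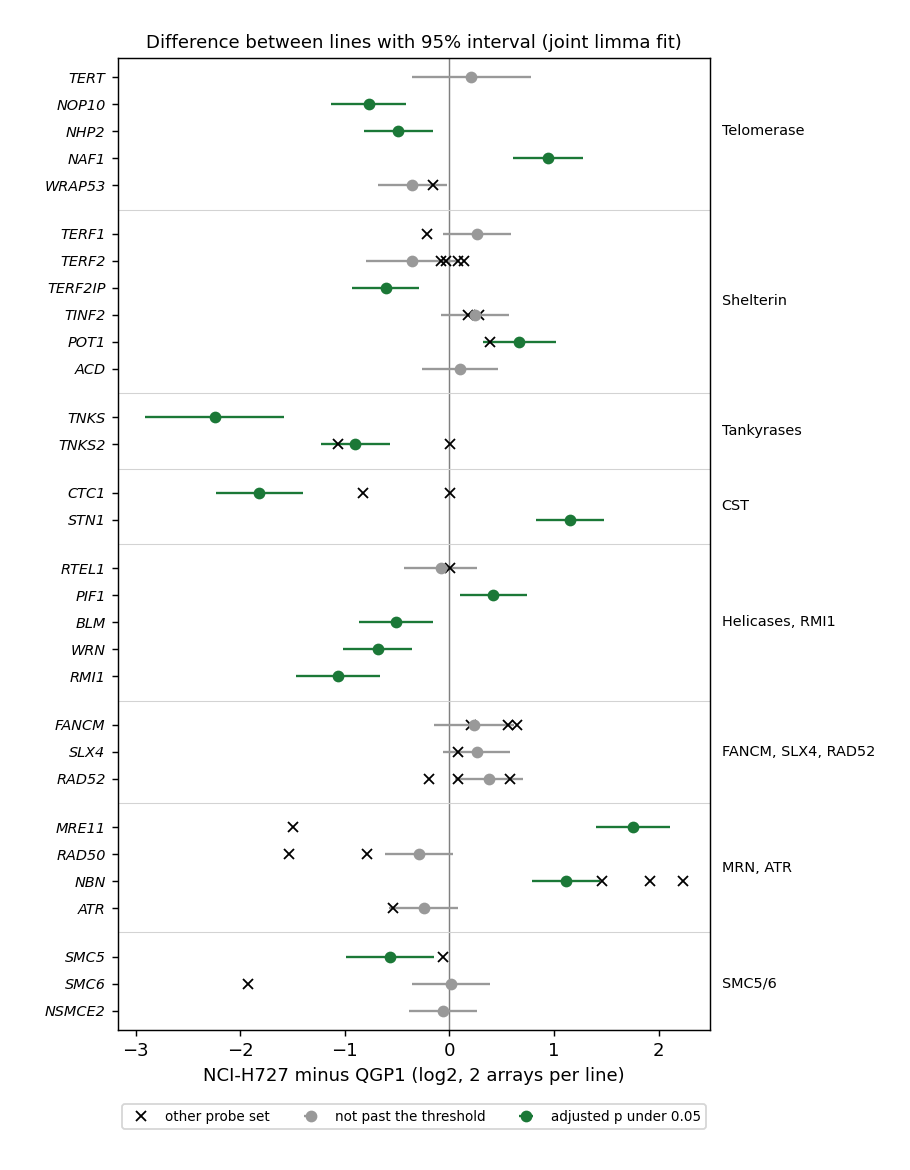
Difference NCI-H727 minus QGP1 (log2) of each member in the joint limma fit with its 95% interval, 2 arrays per line; green points passed an adjusted p of 0.05, grey points did not, and crosses are other probe sets past the filter. Of the representing points, TNKS (-2.24) and CTC1 (-1.82) lie farthest to the left and MRE11 (1.76) farthest to the right, while a second MRE11 probe set lies at -1.49.

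Of the 16 members that passed, 6 had another probe set past the filter, and 7 of the 10 such probe sets lay on the same side as the first. Genes next to the members on the chromosomes were compared too, as the 10 nearest measured genes on each side. Around NBN on chromosome 8 the median line difference of the 20 neighbours was 0.49, with 15 higher in NCI-H727, and around MRE11 on chromosome 11 it was 0.39, with 16 higher. Around TNKS, on chromosome 8 as well, the neighbours had a median of 0.17 against -2.24 for TNKS itself, and around POT1 on chromosome 7 a median of -0.70, with 17 of 20 lower in NCI-H727, against 0.67 for POT1. Of other members that passed, CTC1, STN1 and RMI1 had neighbour medians of -0.30, 0.28 and -0.24, each on the side of the member. WRN, on chromosome 8, had a neighbour median of 0.18 against -0.69 for WRN itself. Neighbours of the remaining members are not given here, nor is the share of all genes higher in NCI-H727 by any size. Over all genes the median was 0.05, with quartiles of -0.46 and 0.40. These neighbour values are descriptions and share the arrays with the members.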

How the data were processed

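Each sample was hybridised to 1 Affymetrix array as biotin-labelled RNA primed at the 3' end, per the labels' protocols. The authors deposited log2 values of 54613 probe sets made by RMA. The submitters' processing notes name affy 1.40.0 under R 3.0.3. RMA corrects background, quantile-normalizes the arrays and summarises probes. A shift shared by most genes would be removed, and dim signals are compressed. Genes came from the platform annotation: 41091 probe sets had 1 symbol, 1801 several and 11721 none, and only the first were used. Of these, 41037 Entrez identifiers were found in RefSeq (GRCh38.p14), with 0 symbols changed. Genes were left out where their mean signal was below 4.85, the 40th percentile over probe sets.

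Within a line, 1 array per condition gave differences of size only. The joint fit used limma 3.58.1 (R 4.3.3) on all 4 arrays with terms for treatment and line, 1 residual and 4.18 prior degrees of freedom, two-sided tests and Benjamini-Hochberg adjustment over 14648 genes. It was tested on simulated data of 14648 genes. There it called, for the knockdown, 48 of 100 genes changed by 1 log2 unit, 99 of 100 changed by 2, and 8 unchanged genes. On the 4 arrays themselves it did not call DAXX, whose knockdown difference was -1.59 (limma adjusted p = 0.374). The share of changed genes that the fit would call on these arrays was not tested. The number of arrays limits the precision. Members, lists, motifs and the naming rule (all members, and of other lists the 3 highest and lowest per line and any past 1.5-fold in both) were chosen with earlier results of these data known. Alternatives changed the filter, probe set choice, normalization, prior and line term.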

Additional observations from a re-analysis of the deposited data

Results flagged for a closer look

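TERT moved in opposite directions in the lines. Its DAXX-KD minus control difference was 0.48 in NCI-H727 and -0.36 in QGP1, which differ by 0.84. With 1 array per condition the difference between the lines was not tested, and the TERT signals, 5.13 to 5.76, lay close to the filter level of 4.85.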

How the results depend on the processing

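In limma 0 of the members passed for the knockdown under any of the 8 alternatives, and the counts of members past 1.5-fold in QGP1 stayed at 0 under all 6. In NCI-H727 the count of members at least 1.5-fold lower was 0 with the mean of the probe sets of a gene. That setting left 29 members and dropped TNKS, the member past 1.5-fold in the main setting, as its mean fell below the filter level. The count was 2 without s_at and x_at probe sets, which left 21 members. With an intensity trend in the prior, limma called 5 of all genes lower after knockdown, none of them a member. Median knockdown differences ran from -0.11 to 0.03 in NCI-H727 and from 0.05 to 0.14 in QGP1. Leaving out each line in turn gave -0.03 and 0.10, which are by construction the medians within the line that was kept. Without s_at and x_at probe sets, limma called 2 of the 21 members left higher and 9 lower in NCI-H727. Of all 11626 genes in that setting it called 2440 higher and 3002 lower. The median line difference over all 21 members left was -0.36. Signs of uncalled knockdown differences in limma turned with the mean of the probe sets for TERT (-0.017), WRAP53 (0.050), MRE11 (-0.070) and RAD50 (-0.0067), without s_at and x_at probe sets for MRE11 (-0.51), RAD50 (-0.04) and ATR (-0.015), and after a second quantile normalization for SLX4 (0.0025) and SMC6 (0.015). Between the lines, SMC6 turned to -0.96 with the mean of its probe sets (limma adjusted p = 0.00321), MRE11 to -1.49 without s_at and x_at probe sets (limma adjusted p = 0.00236) and RTEL1 to 0.010 after the second normalization. PIF1, SMC5 and MRE11 lost their line call under 6 member and setting pairs, and RAD52 and RAD50 gained one under 5. The alternatives that change the probe set change what is measured, and the cause of the other moves was not tested. With no replicate block (no cell line term) 0 genes passed in limma. The median knockdown difference over members was 0.05, which the balanced design holds fixed. Signals near 4.85 lie close to background, which limits TERT most.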
